A study of Mus musculus with 3 samples.

Results

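The genes described here code for translation initiation factors, the proteins that bring the ribosome, the initiator tRNA and an mRNA together at the start codon. They were taken by name: every probe set with a single gene symbol beginning Eif1 to Eif6 was kept, without the eIF2 kinases (Eif2ak genes) and without Eif2s3x and Eif2s3y. The rule found 43 genes of the 19938 with a probe set of their own, and a gene with several probe sets was represented by the brightest over the 3 arrays. The 43 genes had 52 probe sets in all. No measured value other than that choice of probe set entered the rule. Eif1, Eif2s1, Eif3g and Eif4g1, which had no probe set with a single symbol, are not analysed here.

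The samples were DP thymocytes, precursors of T cells in the thymus that are double positive for the coreceptors CD4 and CD8 and are assembling the alpha chain of their antigen receptor. All 3 samples were of that kind: untreated thymocytes of C57BL/6 wild type mice aged 5 to 6 weeks, sorted with CD8 and then CD4 magnetic beads. Each array carried total RNA of 1 cohort of littermates, so an array stands for pooled animals and arrays 1, 2 and 3 are 3 biological replicates of 1 group. There is no second condition. The protocols mention crosslinking with formaldehyde ahead of sorting, and whether the cells used for RNA were fixed is not stated there. The data belong to a project on Ets1, Runx1 and E47 in thymocytes, in which these arrays give the transcripts present at the DP stage.

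The defining markers of the labelled cell type were present: 8 of 8 measured DP genes were above background on every array, among them Cd4 at 11.59, 11.88 and 11.76 and Cd8a at 13.03, 13.27 and 13.26 on arrays 1, 2 and 3. Here and below, values are the deposited log2 expression values, and background is a limit set on each array from genes of other organs (7.33, 7.45 and 7.38). Markers of B cells (0 of 6), thymic epithelium (0 of 7) and erythroid cells (0 of 3) did not pass the limit on all arrays, 1 of 7 stromal markers (Col1a1) did, and of 10 macrophage and dendritic markers H2-Ab1 did. Pearson's r across the 28944 probe sets was 0.996 between arrays 2 and 3 and 0.993 for array 1 against either. Array 1 stood apart: Xist was 11.65 on it and 5.40 and 5.68 on the others, and Jun was 11.01 against 9.65 and 9.56. Of the 8 DP markers 7 were lowest on array 1 (median deviation -0.155), beside 41.2% of all genes above background. Among them was Rag2 at 8.69 against 9.51 and 9.54. Of the 10 macrophage and dendritic markers 7 were highest on array 1, beside 34.5% of all genes. H2-Ab1 was at 9.26, 7.91 and 8.50 and Cd74 at 8.83, 7.27 and 8.05, while Itgam and Cd14 were highest on array 2. Most of this list lay in the background range, with 7 of the 10 markers above the limit on no array. Of the 7 thymic epithelium markers 6 were lowest on array 1, beside 39.3% of all genes, while Krt5 was lowest on array 3. Krt8 and Krt18 passed the limit on array 3 alone, at 7.55 and 7.58. Jun and these single markers were chosen after their values were seen. Whether what sets array 1 apart has a part in the results below was not tested.

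Initiation proceeds in steps. The factor eIF2, charged with GTP and the initiator tRNA, joins the small ribosomal subunit together with eIF1, eIF1A, eIF3 and eIF5, and the exchange factor eIF2B recharges eIF2 after each round. The cap-binding protein eIF4E, the scaffold eIF4G and the helicase eIF4A prepare the mRNA, and eIF5B joins the large subunit. Phosphorylation of eIF2 lowers initiation in general while favouring some stress mRNAs, and eIF4E-binding proteins block cap binding until the kinase mTOR phosphorylates them. In thymocytes these controls matter because dividing precursors make much protein, whereas most DP cells are small and quiescent.

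Nearly all of the factors were present. Of the 43 genes, 41 were above the background limit on all 3 arrays, where 41.4% of all genes were. The median level of the 43 genes was 9.95 (SD 0.12 over the 3 array medians), beside 6.85 for all genes and 9.08 for all genes above background. The other two were Eif4a3l1, above the limit on none of the arrays, and Eif4e1b, above it on array 1 alone. Eif4ebp1 and Eif5a2 lay just above the limit and were lost under a limit at the 99th percentile, which left 39 genes. Probe sets differ in how strongly they bind their target, so the levels of different genes are not ranked here. In RNA of a cell population, fewer cells with a transcript and less of it per cell cannot be told apart.

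**Figure D1:**
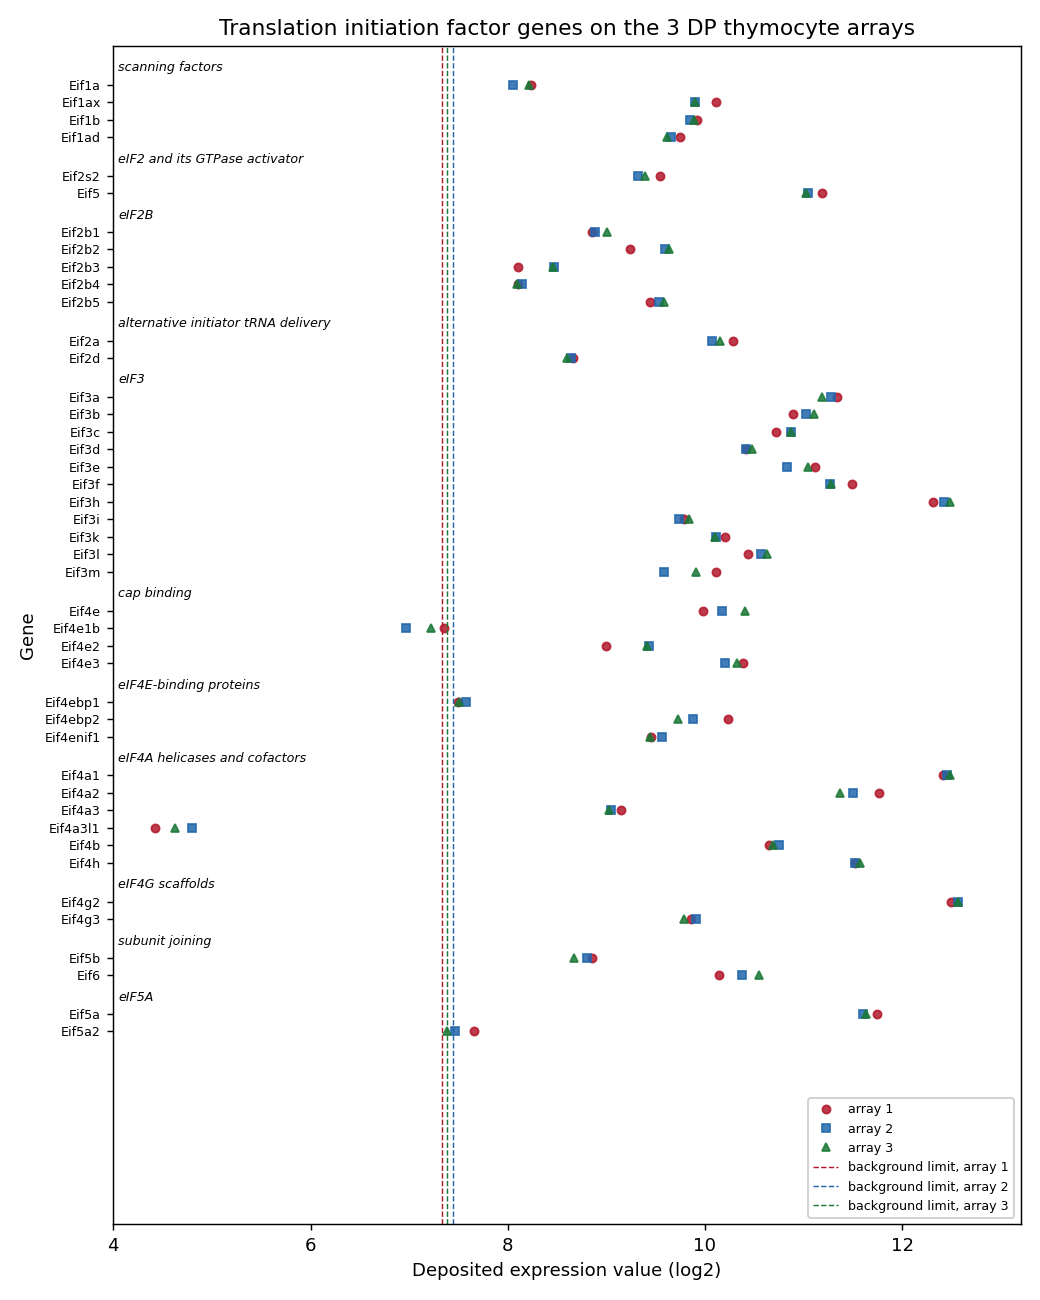
Deposited log2 values (x axis) of the 43 initiation factor genes (y axis, grouped by complex), with 1 point per array and dashed lines at the background limits of 7.33, 7.45 and 7.38. All genes but Eif4a3l1 and Eif4e1b lie right of the limit on all 3 arrays, and the 3 points of most genes nearly coincide.

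The 4 measured factors of the scanning group were all above background and all highest on array 1. Eif1ax and Eif1a, the X-linked and the autosomal gene of eIF1A, which holds the scanning ribosome open, were at 10.11, 9.90 and 9.90 and at 8.24, 8.05 and 8.22. Eif1b, a close relative of the start-codon selector eIF1, was at 9.92, 9.85 and 9.89. Eif1ad, which carries an eIF1A domain, was at 9.75, 9.66 and 9.62. The excess of array 1 over the next array lay between 0.02 and 0.21 log2 units, and array 1 was the highest for 38.5% of all genes above background.

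Of eIF2 itself, the beta subunit gene Eif2s2 was measured at 9.54, 9.32 and 9.39. Eif5, the protein that makes eIF2 hydrolyse its GTP at the start codon, was at 11.19, 11.05 and 11.02. Both were highest on array 1, by at most 0.22. Eif2a and Eif2d, which can deliver the initiator tRNA without eIF2, were at 10.28, 10.07 and 10.15 and at 8.66, 8.64 and 8.60. Again array 1 was the highest for both, but after quantile normalization for only 1 of the 2. Array 1 was the highest for 38.5% of all genes above background.

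The 5 subunits of eIF2B, the exchange factor that recharges eIF2, were above background on all arrays and none was highest on array 1. Eif2b2, the beta subunit, was at 9.24, 9.59 and 9.64 (9.49 ± 0.22, SD, n = 3), and Eif2b3, the gamma subunit, was at 8.10, 8.47 and 8.46. Both were lower on array 1 than on either other array by at least 0.25, as were 6.67% of all genes above background. Eif2b5, the catalytic epsilon subunit, was at 9.44, 9.53 and 9.58, and Eif2b1, the alpha subunit that senses phosphorylated eIF2, was at 8.85, 8.89 and 9.01. Those 2 were also lowest on array 1, while Eif2b4, the delta subunit, was at 8.10, 8.14 and 8.09 and nearly level. The median deviation of the 5 subunits from each gene's own mean was -0.077, 0.030 and 0.093 on arrays 1, 2 and 3. Array 1 was the lowest for 4 of the 5 subunits, and it was the lowest for 41.2% of all genes above background. The count was also 4 after median centring and after quantile normalization, where array 1 was the lowest for 3719 of the 8249 genes above background. No subunit passed the variance test described below (Eif2b2, limma adjusted p = 0.988).

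The 11 measured subunits of eIF3, the largest initiation factor and the platform on which the small subunit is loaded, were all above background, with a median level of 10.82. They did not move as a block. Eif3a and Eif3b were at 11.34, 11.28 and 11.19 and at 10.89, 11.02 and 11.11. Array 1 was thus the highest for one and the lowest for the other. Eif3c was at 10.72, 10.87 and 10.87. Eif3h was at 12.31, 12.42 and 12.49. Eif3e and Eif3f were at 11.12, 10.83 and 11.04 and at 11.49, 11.27 and 11.28. Eif3c and Eif3h were thus lowest on array 1, and Eif3e and Eif3f were highest there.

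Eif3m, also a subunit of eIF3, had the largest spread of the 43 genes. It was at 10.11, 9.58 and 9.91 (9.87 ± 0.27, SD, n = 3), 1.44-fold from the lowest to the highest array. Array 2 was low and array 1 high, and its unadjusted p in the limma variance test was 0.0428 (adjusted p = 0.988). A second Eif3m probe set, away from the gene's place, was also lowest on array 2 and highest on array 1, at 10.05, 9.72 and 9.74. The cap-contacting subunit Eif3d was at 10.42, 10.42 and 10.48 and the scaffold-associated Eif3i at 9.79, 9.74 and 9.84, so neither varied by more than 0.10. Eif3k was at 10.20, 10.11 and 10.10 and Eif3l at 10.44, 10.57 and 10.63, with array 1 the highest for the first and the lowest for the second. In all, 5 subunits were highest on array 1 and 5 on array 3, with Eif3c tied between arrays 2 and 3. Of all genes above background, 38.5% were highest on array 1 and 27.3% on array 3.

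Among the cap-binding proteins, Eif4e, the factor that recognises the cap of the mRNA, was at 9.98, 10.17 and 10.41. It was lowest on array 1 and highest on array 3, 1.35-fold apart. Eif4e2, a relative that binds the cap without eIF4G and represses translation, was at 9.00, 9.43 and 9.41 (9.28 ± 0.24, SD, n = 3), low on array 1 alone. Eif4e3, an atypical family member, was at 10.39, 10.20 and 10.32 and highest on array 1. Eif4e1b, the oocyte member of the family, was at 7.35, 6.97 and 7.22, above the limit only on array 1 and there by less than 0.1.

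The eIF4E-binding proteins compete with eIF4G for eIF4E. Eif4ebp2 was at 10.23, 9.88 and 9.73 (9.95 ± 0.26, SD, n = 3), high on array 1 and 1.41-fold above array 3. Its unadjusted p in the limma variance test was 0.0495 (adjusted p = 0.988). Eif4ebp1, the member best known as an mTOR target, lay close to background on all arrays at 7.50, 7.58 and 7.51 and barely varied. Eif4enif1, which carries eIF4E to the nucleus and to sites of mRNA decay, was at 9.45, 9.56 and 9.44. The third eIF4E-binding protein gene, Eif4ebp3, is not analysed here.

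The eIF4A helicases unwind mRNA leaders, and their cofactors eIF4B and eIF4H speed them up. Eif4a1 was nearly level at 12.41, 12.45 and 12.48, whereas its paralogue Eif4a2 was at 11.77, 11.50 and 11.37 (11.55 ± 0.20, SD, n = 3), high on array 1. Eif4b was at 10.65, 10.75 and 10.69 and Eif4h at 11.52, 11.52 and 11.57, both within 0.10 over the arrays. The scaffolds Eif4g2, which lacks the eIF4E-binding region, and Eif4g3 were at 12.50, 12.57 and 12.57 and at 9.86, 9.91 and 9.79. None of these 4 genes departed on 1 array.

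Eif4a3, the helicase of the exon junction complex rather than of the cap complex, was at 9.15, 9.05 and 9.03, above background everywhere. Eif4a3l1, its relative, was at 4.42, 4.80 and 4.63, below the limit on every array. These relatives fell on opposite sides of the limit on all 3 arrays, and the DNA upstream of their starts is shown because its content of CG dinucleotides also differs. The runs below are the 100 bases before the annotated start in RefSeq GRCm38.p6, written 5′ to 3′ in the direction of transcription, with each CG dinucleotide in capitals; Eif4a3 lies on the minus strand at chr11:119300044-119300143 and Eif4a3l1 on the plus strand at chr6:136327439-136327538.
Eif4a3: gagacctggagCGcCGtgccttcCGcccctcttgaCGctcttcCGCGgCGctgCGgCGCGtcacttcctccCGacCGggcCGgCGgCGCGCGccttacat
Eif4a3l1: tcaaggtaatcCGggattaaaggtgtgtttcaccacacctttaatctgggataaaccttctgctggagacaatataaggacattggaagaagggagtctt
The first run holds 17 CG dinucleotides and the second holds 1. Over the 250 bases upstream, the count was 36 for Eif4a3 and 2 for Eif4a3l1. The median over those 250 bases was 20 for the 33 initiation factors with a promoter. It was 17 for all genes above background on every array and 5 for genes above background on none.

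At the joining step, Eif5b, the GTPase that brings in the large subunit, was at 8.85, 8.80 and 8.67. Eif6, which keeps the large subunit from binding early, was at 10.14, 10.38 and 10.55 (10.36 ± 0.21, SD, n = 3), lowest on array 1 and 1.33-fold higher on array 3. Eif5a, the hypusine-bearing factor that acts mainly in elongation and termination, was at 11.74, 11.60 and 11.63. Its paralogue Eif5a2 was at 7.66, 7.47 and 7.38, close to the limit on every array. The enzymes that make hypusine were present and level, Dhps at 9.15, 9.15 and 9.13 and Dohh at 8.17, 8.20 and 8.14.

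For some factors the brightest probe set did not sit at the gene. The probe sets of this platform are numbered in genome order, so the chromosome of a probe set's neighbours in number was set against the chromosome of its named gene, and 96.8% of the 21695 probe sets with a chromosome lay at their own place. All 7 initiation factors with several probe sets had at least 1 at the gene's place and 1 elsewhere. The one elsewhere was the brightest for 4 of them (57.1%), near the 59.9% of all 409 such genes. The gap in those 4 had a median of 1.32 log2 units, beside 0.34 over all genes.

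The 4 genes were Eif4e, Eif5a, Eif2s2 and Eif4a1. The Eif4e probe set used above sits among chromosome X genes near Ldoc1, while those beside Adh4, Adh5 and Tspan5 on chromosome 3, where the gene lies, were at 8.31, 8.47 and 8.58 and at 6.97, 6.70 and 7.06. The brighter of these 2 was also lowest on array 1 and highest on array 3, and the dimmer was below the limit on every array. The Eif5a probe set used above sits near Alb and Afp on chromosome 5, and the one at the gene on chromosome 11 was at 10.16, 9.96 and 10.16, or 1.56 lower in the mean. For Eif2s2 the probe set on chromosome 2, where the gene lies, was at 8.56, 8.12 and 8.36, and the brighter one sits near Tenm3 and Neil3 on chromosome 8. For Eif4a1 the 3 probe sets differed less, with the one at the gene beside Senp3 on chromosome 11 at 11.97, 11.95 and 12.01. With the probe set at the gene's own place in each case, the count above background remained 41 and the median level was 9.89. What the probe sets elsewhere bind was not tested.

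**Figure D2:**
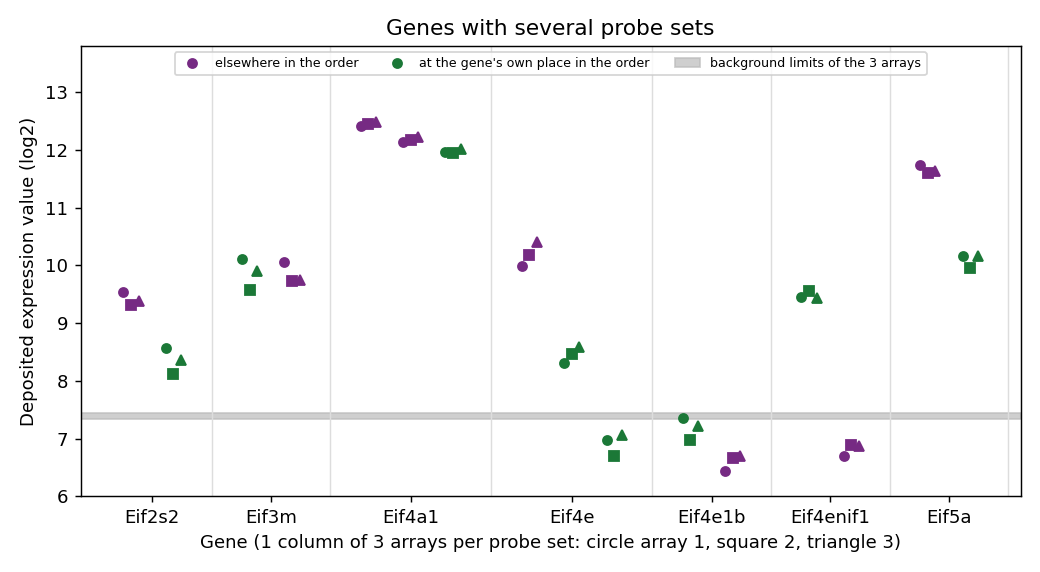
Deposited log2 values (y axis) of every probe set of the 7 initiation factors with several (x axis), 1 point per array, coloured by whether the probe set lies at the gene's own place; the grey band spans the background limits. The brightest column lies away from the gene's place in Eif2s2, Eif4a1, Eif4e and Eif5a, and all 4 genes also have a probe set at their own place above the band.

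Variation between the cohorts was small. The limma variance test, which asks whether a probe set varied over the 3 arrays by more than probe sets of its level, called 0 of the 43 genes at an adjusted p under 0.05, where it called 0.0207% of all probe sets. At an unadjusted p under 0.05 it gave 2 of the 43, Eif3m and Eif4ebp2, beside 4.66% of all probe sets. That count was 3 without array 1, 1 without array 2 or array 3, 1 after quantile normalization or with a prior that was not robust, and 0 with a robust prior without a mean trend, with only probe sets above background or with the control block included. In simulated data a shift confined to 1 array was recovered in 0% of cases at a size of 1 log2 unit, in 46% at a size of 2 and in 100% at a size of 4, so changes of the size seen among the factors were below what it can call. The median SD over the arrays was 0.091 for the factors and 0.093 for all genes above background. Each SD rests on 3 arrays, and that number limits its precision.

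The factors went in both directions on each array. Their median deviation from each gene's own mean was 0.007, -0.017 and 0.013 on arrays 1, 2 and 3, and that of array 1 turned to -0.008 after quantile normalization. Of the 41 above background, 20 (48.8%) were highest on array 1, beside 38.5% of all genes above background, and 15 (36.6%) were lowest there, beside 41.2%. On array 2, 7 of the 41 (17.1%) were highest, beside 2477 of the 8249 genes above background, and 10 (24.4%) were lowest, beside 27.9%. None of these shares was tested. Eif4a2 and Eif4ebp2 exceeded both other arrays by at least 0.25 on array 1, as did 8.41% of all genes above background on every array. Eif2b2, Eif2b3 and Eif4e2 were below both by as much, as were 6.67% of those genes.

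The ribosomal protein genes, measured on the same arrays, gave other values. Their 53 genes were all above background, beside 41.4% of all genes, with a median level of 12.17. Their median deviation was 0.103, -0.107 and -0.020. Of the 53 genes, 44 were highest on array 1, beside 38.5% of all genes above background. After quantile normalization 39 still were, beside 2953 of the 8249 genes above background. The difference between the ribosomal proteins and the initiation factors was not tested.

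**Figure D3:**
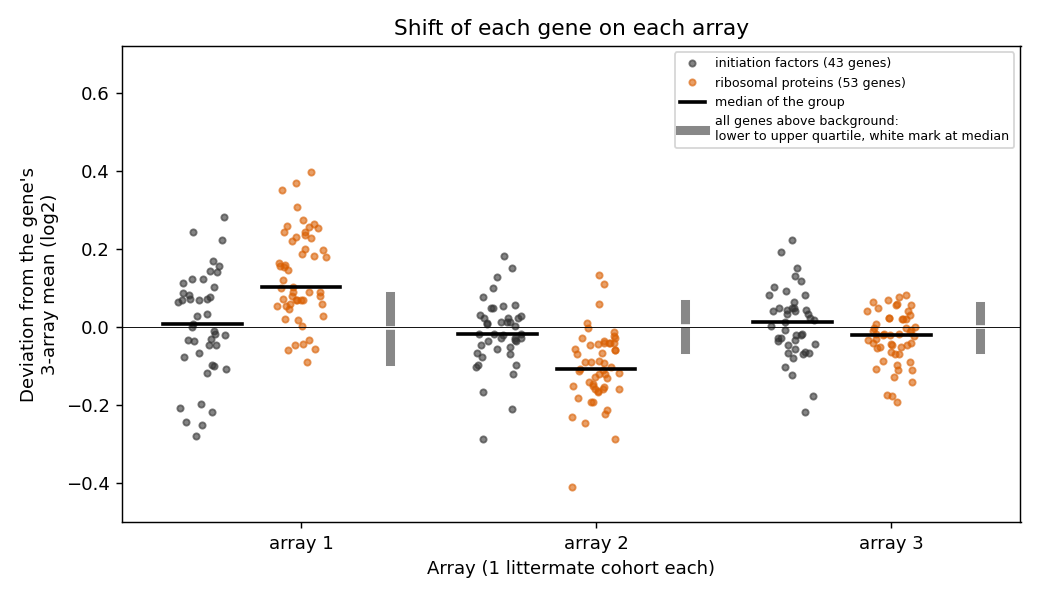
Deviation of each gene from its own 3-array mean in log2 units (y axis) on each array (x axis), for 43 initiation factors and 53 ribosomal protein genes, with a black bar at each group's median and a grey bar from the lower to the upper quartile of all genes above background. The initiation factors scatter around medians of 0.007, -0.017 and 0.013, while the ribosomal proteins have medians of 0.103, -0.107 and -0.020.

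Differences within a pair of genes cancel any scaling of a whole array, so the change of such a difference between arrays can be read where levels cannot. For 10 pairs of paralogues or partners the log2 difference on arrays 2 and 3 was set relative to array 1. The 5 pairs Eif1a and Eif1ax, Eif4g2 and Eif4g3, Eif5a and Eif5a2, Eif4b and Eif4h, and Eif4e and Eif4e2 kept their difference within 0.26 between any 2 arrays. With the probe sets at the gene's own place, the largest change was 0.29 for Eif5a and Eif5a2 and 0.27 for Eif4e and Eif4e2. Eif4a1 gained on Eif4a2 by 0.31 and 0.47, or 1.39-fold from array 1 to array 3. Eif4e gained on Eif4e3 by 0.38 and 0.50, and by 0.35 and 0.34 with the Eif4e probe set at the gene's own place. Eif4e2 gained on Eif4e3 by 0.62 and 0.48. Eif4ebp1 gained on Eif4ebp2 by 0.43 and 0.51, while Eif4ebp1 by itself differed by at most 0.08 over the arrays.

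Among the pairs, the widest change lay between Eif4e and its inhibitor Eif4ebp2, which are partners and not paralogues. Of the 43 genes, Eif4e rose most from array 1 to array 3 (9.98 to 10.41) and Eif4ebp2 fell most (10.23 to 9.73). The pair thus joins the extreme members of both directions. Their log2 difference was -0.25, 0.29 and 0.68, so that Eif4e gained by 0.54 and 0.93, the latter 1.91-fold. It was lowest on array 1 and highest on array 3. With the Eif4e probe set at the gene's own place the gain to array 3 was 0.77, and after quantile normalization it was 0.92. With 1 array per cohort, no pair has a replicate of its own array, and no test was made.

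**Figure D4:**
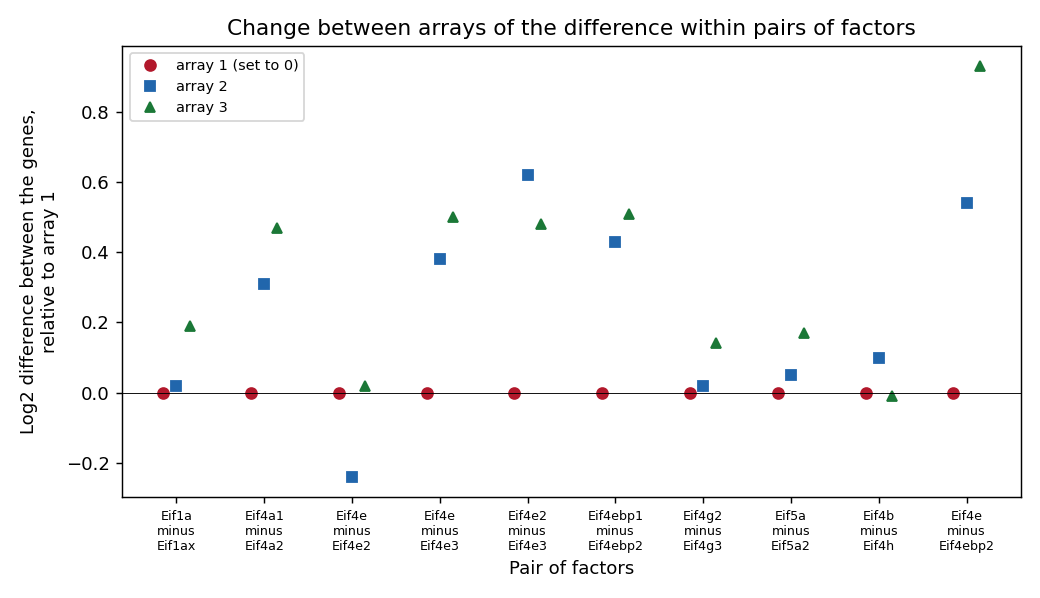
Log2 difference within each of 10 pairs of factors (x axis) on arrays 2 and 3 relative to array 1, which is set to 0 (y axis). Eif4e minus Eif4ebp2 reaches 0.54 on array 2 and 0.93 on array 3, and the pairs Eif4g2 and Eif4g3, Eif5a and Eif5a2, and Eif4b and Eif4h stay within 0.17 of array 1.

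The list of genes that control eIF2, mostly kinases and phosphatase subunits, had 7 measured genes of 8. All 7 were above background on every array, beside 41.4% of all genes. Array 1 was the highest for 6 of them, as it was for 38.5% of all genes above background. Their median SD over the arrays was 0.125, beside 0.091 for the factors, a difference that was not tested. Eif2ak1, the kinase that senses haem, was at 9.33, 9.09 and 9.15, and Eif2ak2, the kinase that senses double-stranded RNA, was at 7.42, 7.49 and 7.52, just above the limit. The next 2 genes were chosen after their values were seen. Ppp1r15a, a stress-induced subunit that directs a phosphatase to eIF2, was at 10.24, 8.54 and 8.66, or 3.25-fold higher on array 1 than on array 2 (limma adjusted p = 0.326). Eif2ak3, the kinase of the endoplasmic reticulum, was at 10.84, 10.23 and 10.14 (limma adjusted p = 0.988). Both stood high on array 1, while arrays 2 and 3 lay close together.

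When eIF2 is phosphorylated, the mRNA of the transcription factor ATF4 is translated better and its target genes are induced. Of 8 genes listed for that response, 4 were above background on all arrays, beside 41.4% of all genes. Atf4 itself was at 9.77, 9.11 and 9.23, and Ddit3, which codes for the stress factor CHOP, was at 8.56, 8.03 and 7.96. Both were highest on array 1 by over 0.5. Among the ATF4 targets chosen after their values were seen, Trib3 and Asns were below the limit on every array, Asns at 5.76, 5.51 and 5.56. Sesn2 passed it on array 1 alone, and Chac1, at 7.09, 7.52 and 7.43, passed it on the other two and was lowest on array 1. Array 1 was thus the highest for 5 of these 8, beside 34.5% of all genes. It was the lowest for the other 3, beside 39.3% of all genes. No gene of either list passed the variance test, and 5 of the 15 genes in both (Ppp1r15a, Eif2ak3, Atf4, Ddit3 and Sesn2) had an unadjusted limma p under 0.05 (4.66% of all probe sets).

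**Figure D5:**
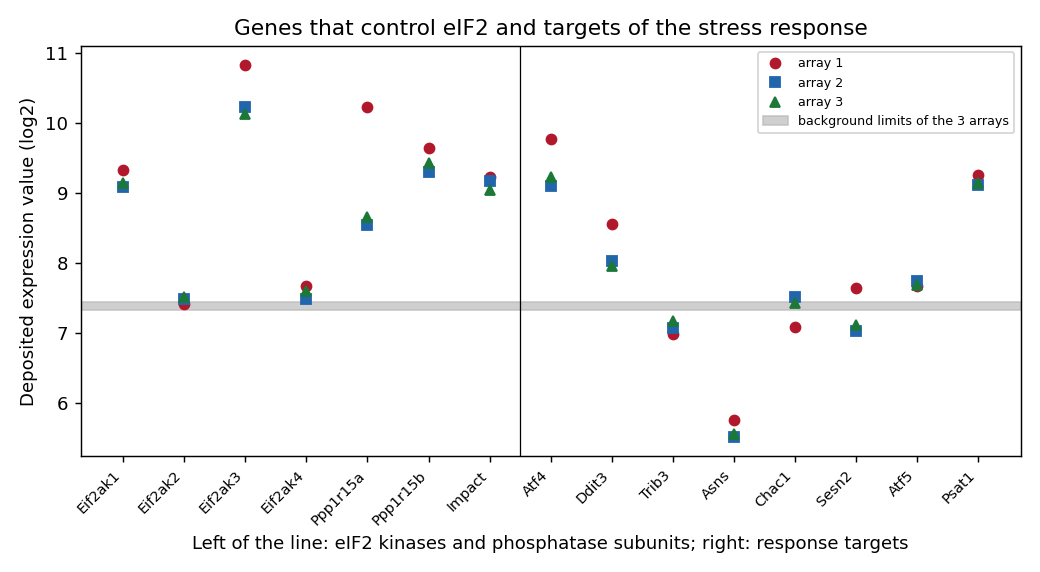
Deposited log2 values on the 3 arrays (y axis) of 7 genes that control eIF2, left of the line, and 8 targets of the stress response, right of it. Those on the left are mostly kinases and phosphatase subunits. The grey band spans the background limits. Array 1 stands above arrays 2 and 3 for Ppp1r15a (10.24 against 8.54 and 8.66), Eif2ak3, Atf4 and Ddit3, and Asns and Trib3 lie below the band on every array.

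Of 17 genes listed for the control of cap binding 15 were measured. All 15 were above background on every array, beside 41.4% of all genes. Mtor, the kinase that phosphorylates eIF4E-binding proteins, was at 9.24, 9.24 and 9.21, and Rptor, its partner in that complex, was at 9.40, 9.32 and 9.33. Both were level over the arrays. Rheb, the GTPase that activates mTOR, was chosen after its values were seen and was at 9.54, 8.84 and 9.08, 1.62-fold from the lowest to the highest array (limma adjusted p = 0.988). The median deviations of the list were 0.010, 0.033 and -0.027.

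The DNA before the start sites was searched because the project concerns factors that bind it. RefSeq GRCm38.p6 gave promoters for 33 of the 43 genes, and the 250 bases upstream of each start were read on both strands. The ETS family core CCGGAAG was found in 11 of the 33 (33.3%), against 18.9% of the 6713 genes above background on every array. It was found in 4.25% of the 8385 genes above background on none and in 7.83% of all 27025 genes with a promoter. Its longer form CCGGAAGT, which contains the core, was found in 5 (15.2%), against 8.24% of genes above background and 3.23% of all. The MYC type E-box CACGTG was found in 8 (24.2%), against 10.8% of genes above background and 6.86% of all. GGGCGG, the GC box, was found in 24 (72.7%), against 66.8% and 35.4%. Each of these strings contains a CG dinucleotide. The median CG count over the 250 bases was 20 for the 33 factors, 17 for genes above background and 6 for all genes. Whether CG content has a part in these shares was not tested.

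For Runx1 and E47, the other factors of the project, a single string each was searched. Neither string had a higher share among the 33 genes than among genes above background. Other forms of their motifs were not searched. TGTGGT, bound by Runx proteins, was found in 4 of the 33 (12.1%). It was in 12.5% of genes above background and in 15.9% of all genes with a promoter. CAGCTG, an E-box bound by E47, was found in 2 (6.06%), against 12.8% and 14.7%. TATAAA, the TATA box, was also found in 2 (6.06%), against 6.90% and 14.3%. A gene counted if any of its promoters held the match. The 33 genes had 45 promoters, and the 6713 genes above background had 8541. Each match is a string of letters, not a measured binding site, and none of these shares was tested.

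The stretches below show how the matches sit in promoters of factors described above. Each is RefSeq GRCm38.p6 sequence upstream of the gene's start, read 5′ to 3′ in the direction of transcription, with the match in capitals. The first 2 hold the longer ETS form on the opposite strand, where it reads ACTTCCGG: Eif3d on the minus strand at chr15:77970858-77970925, with the match beginning 71 bases before the start, and Eif3l on the plus strand at chr15:79075157-79075222, 36 bases before it. The next 4 hold the E-box: Eif1b at chr9:120492552-120492605 (plus strand, 24 bases before the start), Eif3f at chr7:108934317-108934382 (plus, 68), Eif4a1 at chr11:69672577-69672642 (minus, 189) and Eif4h at chr5:134639470-134639535 (minus, 96).
Eif3d: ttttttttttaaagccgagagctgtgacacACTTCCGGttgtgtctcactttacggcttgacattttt
Eif3l: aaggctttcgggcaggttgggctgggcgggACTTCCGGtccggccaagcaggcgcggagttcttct
Eif1b: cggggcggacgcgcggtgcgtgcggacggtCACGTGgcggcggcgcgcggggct
Eif3f: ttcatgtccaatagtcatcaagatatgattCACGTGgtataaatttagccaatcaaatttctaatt
Eif4a1: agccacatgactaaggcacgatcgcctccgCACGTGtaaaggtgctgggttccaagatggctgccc
Eif4h: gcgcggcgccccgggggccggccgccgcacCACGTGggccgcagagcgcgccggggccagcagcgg
All 6 genes were above background on every array. The other genes with the longer ETS form were Eif4e2, Eif5a and Eif5a2, and the other genes with CACGTG were Eif3k, Eif4e, Eif5a and Eif5a2.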

How the data were processed

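Per the labels' protocols, RNA was extracted with TRIzol, amplified, biotin-labelled and hybridised to Affymetrix arrays. The authors deposited a log2 expression value for each probe set on each array; the scale was inferred from their range, 1.60 to 14.94. Of software, the R package affy is named in the submitters' processing notes, without settings. How arrays were normalized, and against which build probes were designed, is not given in the sources used here. Sorted values of any 2 arrays differed by at most 0.15, so a global change in RNA content would not be visible.

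Genes were named from the platform annotation. Of 35556 probe sets, 21789 have 1 symbol, 1621 several and 12146 none; those with several named no gene. A block of 6612 without symbols at the low end of the numbering was taken for controls and dropped, leaving 28944. The background limit of each array was its 95th percentile over 105 genes of other organs. The probe set of a gene with several was the one with the highest 3-array mean.

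All 3 samples form 1 group, and p-values measure only the spread between these cohorts. The variance test was an intercept-only fit with limma 3.58.1 in R 4.3.3: an F test of each variance against a robust, mean-dependent prior with pooled prior degrees of freedom, adjusted by Benjamini-Hochberg over 28944 probe sets. The planned prior with degrees of freedom of its own for each probe set recovered no planted shift in simulated data and was replaced. With 50 shifts of each size planted, the test made 9 false calls, and it made 0 calls when nothing was shifted. Python 3.11.15 with pandas 2.3.3 and numpy 2.4.6 did the rest.

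All initiation factors could be named, and list genes could be named where they were the first 2 of a list, on the minority side of the background limit or past the test; any other gene was picked with its values in view, and the text says so beside it. The members and lists were chosen with earlier results of these data known. Alternatives were 2 scalings, leaving out each array, other background limits, other probe set choices and other priors.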

Additional observations from a re-analysis of the deposited data

How the results depend on the processing

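The count of initiation factors above background stayed at 41 in each alternative except the 99th percentile limit, which gave 39. Their median level ranged from 9.87 to 10.0 when an array was left out and was 9.89 with the probe set at the gene's own place, a choice added after seeing the data. The variance test called 0 initiation factors in every alternative run. Over all probe sets it called 6, between 0 and 18 when an array was left out (18 without array 1), 3 with a prior that was not robust, and 0 with a robust prior without a mean trend, with only probe sets above background, or with the control block included. The median deviation of the factors on array 3 lay between -0.01 and 0.005 when an array was left out. With the probe set at the gene's own place, the change from array 1 to array 3 was -0.14 for Eif4e minus Eif4e2 and 0.28 for Eif5a minus Eif5a2. The level of 6 of 43 genes moved with the mean of all probe sets and of 4 with the probe set at the gene's own place, and the level of 0 moved in the other settings. The cause of these changes was not tested. No paired analysis was possible because all samples belong to 1 group.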

Other observations

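Genes of the later steps of translation were above background in most cases, where 41.4% of all genes were above it on every array. Of 8 measured accessory initiation and recycling factors all were above background on every array, with Denr and Mcts1, which act together after termination, at 9.68, 9.63 and 9.69 and at 7.96, 7.98 and 8.02. Both were level over the arrays. Of 8 elongation factors 7 were above background: Eef1a1, which delivers aminoacyl tRNA, was at 13.06, 13.10 and 13.00, and its muscle and brain paralogue Eef1a2 was below the limit on every array at 6.92, 6.89 and 6.64. Of 3 termination factors, the stop codon reader Etf1 was at 10.15, 10.01 and 10.15, and Gspt2 was below the limit on every array at 4.65, 4.71 and 4.64.

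Among these 3 lists, the genes with the widest spread were chosen after their values were seen. Eef1b2, which recharges eEF1A with GTP, was at 11.15, 10.38 and 10.51, 1.71-fold from the lowest to the highest array (limma adjusted p = 0.986). Bzw2, a relative of eIF5, was at 10.15, 9.61 and 9.73 (limma adjusted p = 0.988). Both were highest on array 1. The limma variance test called 0 of the 19 genes, and these 2 were those with an unadjusted p under 0.05, beside 4.66% of all probe sets.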
